A study of Mus musculus with 8 samples.

Results

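The CDK inhibitor genes of the INK4 and CIP/KIP families were examined in poly(A) RNA of BMiFLT3 (15-3) cells, a mouse pro-B cell line from a B-cell precursor leukaemia. They were chosen by symbol as Cdkn2a, Cdkn2b, Cdkn2c and Cdkn2d (INK4), Cdkn1a, Cdkn1b and Cdkn1c (CIP/KIP) and Cdkn3, a CDK phosphatase named with them, 8 rows of the 38918 in the table. Cells had been infected with a retrovirus to overexpress Klf2, a zinc-finger transcription factor, and the controls with one for blue fluorescent protein (BFP). The column names of both constructs carry BFP, so both may express it, and the line is a single leukaemia line. Each construct has 4 samples whose titles differ by lane, and as the counts of these lanes differed by about sampling noise, each group was treated as 1 library with no replicate check. A difference in culture or preparation therefore cannot be told apart from one of construct.

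CDK inhibitors hold back the cyclin-dependent kinases that drive cells from G1 into DNA replication. INK4 proteins bind CDK4 and CDK6 and keep D-type cyclins off them, whereas CIP/KIP proteins bind cyclin-CDK complexes, mainly those of CDK2. In lymphoid progenitors, p27 (Cdkn1b) and p18 (Cdkn2c) are known as brakes on division, p21 (Cdkn1a) is a target of p53, and the Cdkn2a and Cdkn2b genes are often deleted in B-cell precursor leukaemia. KLF2 is known as a factor of lymphocyte quiescence.

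The Klf2 library held 30835450 exon reads, 7682298 to 7741626 per lane, and the BFP library 30133978, 7506567 to 7588695 per lane. Levels are CPM, reads scaled to library size, after TMM scaling, which corrects for composition, and a ratio is Klf2 over BFP with an exact 95% interval that covers counting error only. A gene was called when its ratio was at least 2 in either direction, its interval excluded 1 and either library reached 1 CPM. Klf2 itself was at 113 CPM in the Klf2 library and at 10.1 CPM in the BFP library, a ratio of 11.1 (9.93 to 12.6). Its reads across exon junctions had a ratio of 31.4 (20.8 to 49.9). Its reads outside exons, 17 in the Klf2 library and 35 in the BFP library, had one of 0.505 (0.266 to 0.927). Reads of the vector and of the cells' own Klf2 gene were not told apart. Of 13 pro-B markers in the table, 10 were measured and none was called, with 3 intervals above 1 and 7 below. Those furthest from 1 were Cd93 (351 CPM in Klf2 and 571 CPM in BFP), Vpreb1 (727 CPM in Klf2 and 488 CPM in BFP), Igll1 (873 CPM in Klf2 and 611 CPM in BFP) and Cd79b (126 CPM in Klf2 and 168 CPM in BFP). Named after their values were seen, Dntt, Rag1 and Rag2 were near 0, with 9, 1 and 4 reads in the Klf2 library and 1, 1 and 7 in the BFP library. Myeloid markers summed to 6.32 CPM in the Klf2 library and 13.8 CPM in the BFP library over 11 genes, with Cebpe, S100a8 and S100a9 at 0 reads in both. The 3 measured ones were all lower by their intervals, Fcgr1 (24 reads in Klf2 and 166 in BFP, ratio 0.150, called), Cd14 (0.543) and Csf1r (0.623). T and NK cell markers summed to 7.63 CPM in the Klf2 library and 4.53 CPM in the BFP library over 10 genes, mostly Trac, with Cd3e, Cd4, Cd8a, Cd8b1 and Ncr1 at 0 reads in both. Erythroid and megakaryocyte markers summed to 2.61 CPM in Klf2 and 3.63 CPM in BFP over 6 genes, and stromal and endothelial markers to 58.9 CPM in Klf2 and 46.1 CPM in BFP over 6 genes, nearly all of it Pecam1. Whether these marker reads came from the line itself or from other cells was not tested, nor was their bearing on the results below.

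The transcripts of this group differed in direction. Cdkn2b, Cdkn1b and Cdkn1a were lower in the Klf2 library, by counting intervals wholly below 1, and Cdkn3 and Cdkn2d were higher. Cdkn2a, the most abundant of the 8 per kilobase, and Cdkn2c had intervals that held 1, and Cdkn1c had no read in either library. Only Cdkn2b passed the 2-fold rule, 1 of 8 genes listed and of 7 measured, where 8.12% of all 10850 measured genes passed it in either direction, 5.67% downward and 2.45% upward. An interval below 1 was found for 3 genes and one above 1 for 2, shares to be read against 37.3% and 37.1% of all measured genes. At this depth 74.4% of measured genes had an interval that excluded 1, so 5 of 7 measured members is close to the background, and the results below are the sizes of the single ratios. The lanes of the libraries did not overlap for the same 5 genes, as for 62.9% of all measured genes.

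The promoter sequences of the 3 lower genes and of Cdkn3, the member furthest above 1, are shown because these genes moved furthest from 1 or, for Cdkn1a, hold the largest number of CACCC matches. Each run covers 250 bases before and 50 after a RefSeq transcript start in GRCm38.p6, 5′ to 3′ on the gene's strand. Capitals mark CACCC, the core of the element KLF factors bind, with its reverse complement GGGTG, and CCAAT, the core of the element NF-Y binds, with its reverse complement ATTGG.
Cdkn2b, chr4:89310983-89311282, minus strand: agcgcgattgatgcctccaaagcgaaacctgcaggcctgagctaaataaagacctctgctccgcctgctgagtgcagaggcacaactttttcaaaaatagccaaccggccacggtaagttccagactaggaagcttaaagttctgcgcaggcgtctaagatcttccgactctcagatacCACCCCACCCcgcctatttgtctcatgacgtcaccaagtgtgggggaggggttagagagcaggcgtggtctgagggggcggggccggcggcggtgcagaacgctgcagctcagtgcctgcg
Cdkn1b, chr6:134920151-134920450, plus strand: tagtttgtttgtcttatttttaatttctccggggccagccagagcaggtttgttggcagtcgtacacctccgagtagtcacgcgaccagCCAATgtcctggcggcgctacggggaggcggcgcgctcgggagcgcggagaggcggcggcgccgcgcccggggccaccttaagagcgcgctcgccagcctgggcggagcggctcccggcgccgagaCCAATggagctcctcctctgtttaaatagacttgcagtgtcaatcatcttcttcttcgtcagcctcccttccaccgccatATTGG
Cdkn1a upstream start, chr17:29090729-29091028, plus strand: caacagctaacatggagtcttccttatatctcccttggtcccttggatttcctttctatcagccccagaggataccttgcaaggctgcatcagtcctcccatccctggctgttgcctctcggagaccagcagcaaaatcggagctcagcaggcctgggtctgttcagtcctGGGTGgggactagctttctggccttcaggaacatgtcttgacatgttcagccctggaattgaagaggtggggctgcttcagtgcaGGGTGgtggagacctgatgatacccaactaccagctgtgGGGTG
Cdkn1a downstream start, chr17:29093519-29093818, plus strand: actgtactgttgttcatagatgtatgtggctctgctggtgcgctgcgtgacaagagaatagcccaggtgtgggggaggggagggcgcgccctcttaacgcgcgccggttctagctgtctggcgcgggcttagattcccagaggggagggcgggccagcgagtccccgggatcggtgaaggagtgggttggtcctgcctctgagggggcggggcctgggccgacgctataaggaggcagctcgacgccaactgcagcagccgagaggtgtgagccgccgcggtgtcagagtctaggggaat
Cdkn3, chr14:46760291-46760590, plus strand: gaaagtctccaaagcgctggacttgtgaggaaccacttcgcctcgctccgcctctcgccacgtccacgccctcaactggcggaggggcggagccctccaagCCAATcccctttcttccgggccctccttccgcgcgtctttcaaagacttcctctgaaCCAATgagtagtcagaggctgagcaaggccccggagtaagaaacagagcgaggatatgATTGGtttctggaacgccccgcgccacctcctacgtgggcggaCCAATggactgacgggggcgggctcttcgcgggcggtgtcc

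CACCC or its reverse complement occurred 2 times in the Cdkn2b promoter and 3 times at the upstream start of Cdkn1a, and was not in the windows of Cdkn1b, Cdkn3 or the downstream start of Cdkn1a. In the windows not shown it occurred 1 time in each of those of Cdkn2a, Cdkn2c and Cdkn2d. Of all 32851 promoters of this length, 57.5% held at least 1 match, 25.7% at least 2 and 9.35% at least 3. Cdkn1a was shown for its CACCC count and has 2 windows, so its place against these shares does not test that count. CCAAT on either strand occurred 4 times in the Cdkn3 promoter, as did at least 4 matches in 1.06% of promoters, and 3 times in that of Cdkn1b, as did at least 3 in 3.37%. Cdkn3 and Cdkn1b lay on opposite sides of 1, with ratios of 1.83 and 0.597. As several motifs were counted in 10 windows and the highest counts are set out, these shares do not test rarity. CCAAT occurred 1 time in the Cdkn2d window and 1 time in 1 window each of Cdkn2a and Cdkn2c. The GC box GGGCGG, the core of SP factor sites, was searched on both strands as well and matched 4 times in the Cdkn3 window, 5 times in that of Cdkn2d, 1 time in each of Cdkn2b and Cdkn1b, and 2 times at the downstream start of Cdkn1a. It also matched 1 and 3 times in the Cdkn2a windows and 0 and 4 times in those of Cdkn2c, the genes whose intervals held 1. At least 4 GC boxes were found in 5.49% of promoters and at least 1 in 35.7%. The windows with 4 or 5 matches were 62.3% (Cdkn3), 73.3% (Cdkn2c) and 66.3% (Cdkn2d) G and C. The median of all promoters was 52.7%. As the shares were not matched for base content, they cannot tell whether these counts are unusual. No match of one motif overlapped a match of another in the windows shown. These matches are descriptions of letters and say nothing of binding in these cells, and 7 of the 8 genes had a promoter in the table.

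Cdkn2b encodes p15, an INK4 inhibitor known as a target of TGF-beta signalling (chromosome 4, 89306289 to 89311032, mm10, minus strand, 2 exons). It had 3.61, 4.69, 4.97 and 4.93 CPM in lanes 1 to 4 of the Klf2 library, against 9.81, 10.1, 10.1 and 9.32 CPM in those of the BFP library. Every Klf2 lane lay below every BFP lane, as was so for 30.7% of measured genes. The summed reads were 136 and 305 in the Klf2 and BFP libraries, a ratio of 0.464 (0.376 to 0.570), whose interval reaches past the 2-fold limit. Reads placed in the gene but outside its exons did not follow, at 95 in the Klf2 library and 103 in the BFP library, a ratio of 0.960 (0.718 to 1.28). Such reads made up 41.1% of all Cdkn2b gene reads in the Klf2 library and 25.2% in the BFP library, whereas over all genes the shares were 15.1% and 15.2%. Reads across its exon junction were few, 0 in the Klf2 library and 6 in the BFP library, with an interval of the ratio up to 0.884. When reads outside exons were counted in, the log2 ratio was -0.74 in place of -1.11, and Cdkn2b no longer passed the 2-fold rule.

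**Figure D1:**
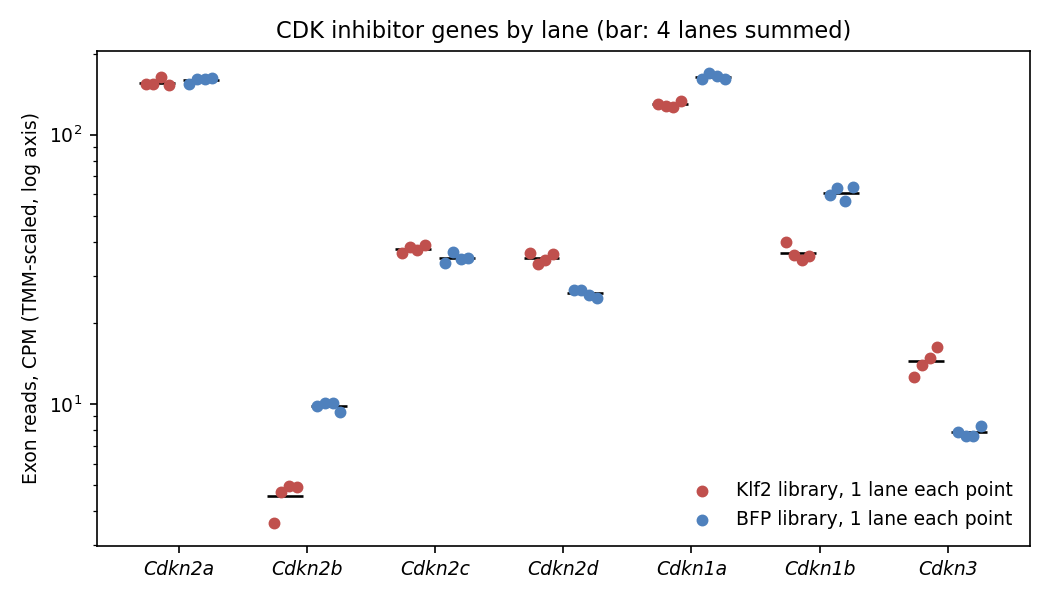
CPM on a log axis for the 7 CDK inhibitor genes with reads, in each of the 4 lanes of the Klf2 library (red, left) and the BFP library (blue, right); black bars are the 4 lanes summed. Klf2 lanes lie wholly below BFP lanes for Cdkn2b, Cdkn1a and Cdkn1b, wholly above for Cdkn2d and Cdkn3, and overlap for Cdkn2a and Cdkn2c.

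Cdkn2a, which lies 11636 bases from Cdkn2b, encodes p16 and, from another first exon in another reading frame, ARF, which stabilises p53 (chromosome 4, 89274471 to 89294653, minus strand, 5 exons in 2 transcripts). It had 154, 155, 164 and 153 CPM in the Klf2 lanes and 154, 161, 161 and 162 CPM in the BFP lanes, and the groups overlapped. With 4668 reads in the Klf2 library and 4961 in the BFP library, its ratio was 0.979 (0.941 to 1.02), and over the alternative scalings and kinds of read its log2 ratio ran on both sides of 0, between -0.12 and 0.04. The locus was transcribed in both libraries, and Cdkn2a stood above 95.8% of measured genes per kilobase in the Klf2 library and above 96.9% in the BFP library. Reads across its junctions gave a ratio of 1.01 (0.928 to 1.11), from 1020 reads in the Klf2 library and 1048 in the BFP library. Reads outside its exons were somewhat more numerous in the Klf2 library, 841 against 723 in the BFP library, a ratio of 1.21 (1.09 to 1.34). The deposited median coverage over its exons was 20, 16, 22 and 20 in the Klf2 lanes and 24, 26, 26 and 26 in the BFP lanes. The share of all genes whose lanes differ likewise in this signal was not determined, and the lanes are of 1 library per group. The table holds 1 row for both products, so p16 and ARF transcripts were not separated here.

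The 500 kb on either side of Cdkn2a held 37 other rows, of which 3 were measured and 23 had no read in either library. Mtap, a methionine salvage enzyme that is often deleted together with this locus in human tumours, was at 111 CPM in the Klf2 library and 55.4 CPM in the BFP library. Its ratio of 1.999 (1.89 to 2.12) stopped just short of the 2-fold rule. The provisional gene Gm12609 had 35 and 27 reads in the Klf2 and BFP libraries, a ratio of 1.35 (0.793 to 2.32). Along this stretch the ratio was thus above 1 for Mtap, 0.979 for Cdkn2a and below 1 for Cdkn2b. For Gm12609, which lies beyond Cdkn2b, the interval held 1.

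**Figure D2:**
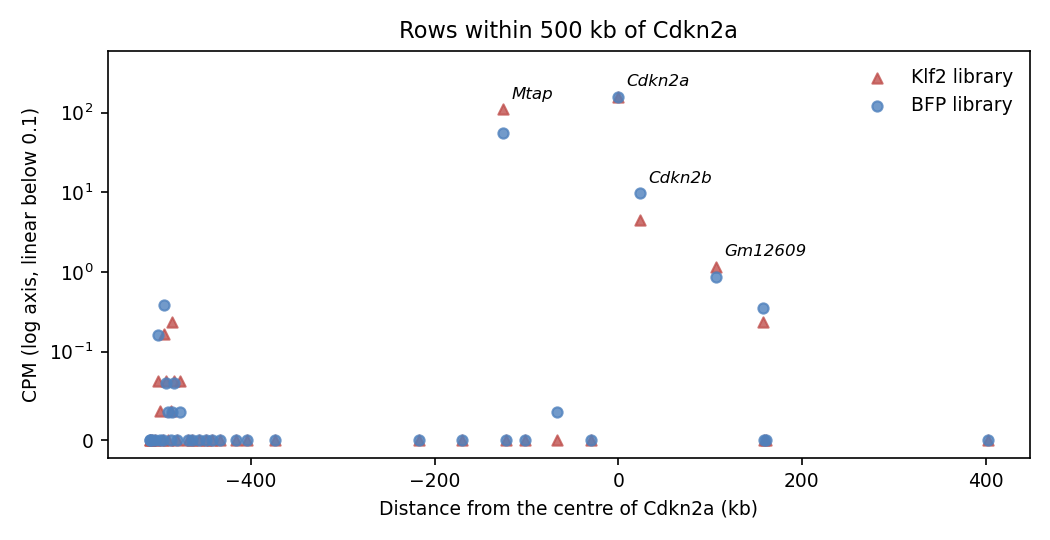
CPM of every row within 500 kb of Cdkn2a against its distance in kb from the centre of Cdkn2a, for the Klf2 library (triangles) and the BFP library (circles), on an axis that is logarithmic above 0.1 CPM. Mtap, Cdkn2a, Cdkn2b and Gm12609 reach 1 CPM, and most other rows are at 0.

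Cdkn2c encodes p18, an INK4 inhibitor of lymphoid cells (chromosome 4, 109660876 to 109667189, minus strand, 4 exons). It had 36.2, 38.4, 37.2 and 38.8 CPM in the Klf2 lanes and 33.4, 36.6, 34.7 and 34.99 CPM in the BFP lanes. The groups overlapped, and the ratio of 1.08 (0.991 to 1.17) had an interval that held 1. Its reads outside exons, 412 and 357 in the Klf2 and BFP libraries, gave a ratio of 1.201 (1.04 to 1.39).

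Cdkn2d encodes p19, the INK4 protein whose level is known to vary with the cell cycle (chromosome 9, 21288463 to 21291209, minus strand, 2 exons). It had 36.2, 33.0, 34.1 and 36.1 CPM in the Klf2 lanes and 26.5, 26.4, 25.4 and 24.8 CPM in the BFP lanes. All Klf2 lanes lay above all BFP lanes, as for 32.3% of measured genes, and the ratio was 1.35 (1.23 to 1.49) from 1042 reads in the Klf2 library and 801 in the BFP library. Too few reads crossed its junction (6 in the Klf2 library and 8 in the BFP library) or lay outside its exons (19 in Klf2 and 14 in BFP) to bear on this.

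Cdkn1b encodes p27, which binds cyclin E-CDK2 and is transcribed under FOXO factors (chromosome 6, 134920401 to 134925513, plus strand, 4 exons). It had 39.98, 35.8, 34.1 and 35.6 CPM in the Klf2 lanes and 59.9, 63.4, 56.6 and 63.98 CPM in the BFP lanes. The groups did not overlap, and the ratio was 0.597 (0.553 to 0.643) from 1087 reads in the Klf2 library and 1896 in the BFP library. Junction reads gave a similar ratio, with 153 in the Klf2 library and 251 in the BFP library, of 0.634 (0.515 to 0.779). With a fold limit of 1.5 in place of 2, Cdkn1b and Cdkn2b were called lower and Cdkn3 higher, 3 of 8 genes, where 24.1% of all measured genes passed in either direction, 13.9% downward and 10.2% upward.

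Cdkn1a encodes p21, the CDK inhibitor best known as a target of p53 (chromosome 17, 29090979 to 29100722, plus strand, 7 exons in 3 transcripts). It had 130.4, 128, 127 and 133 CPM in the Klf2 lanes and 161, 169, 165 and 161 CPM in the BFP lanes, with no overlap. The ratio was 0.790 (0.758 to 0.824) from 3872 reads in the Klf2 library and 5099 in the BFP library, the nearest to 1 of the 3 lower genes. Reads across its junctions, 103 and 122 in the Klf2 and BFP libraries, had a ratio of 0.879 (0.669 to 1.15), whose interval held both 1 and the exon ratio. A minus-strand transcript, AC167363.2 in GENCODE M21, overlaps Cdkn1a, and its reads cannot be told apart from those of Cdkn1a if strand was not used in counting. Trp53cor1, the noncoding lincRNA-p21 gene that lies 12018 bases before Cdkn1a and is another target of p53, was called lower with 109 and 227 reads in the Klf2 and BFP libraries, a ratio of 0.4997 (0.394 to 0.631). Of the 18 measured rows within 500 kb of Cdkn1a, Pi16 was also called lower (0.217) and Rab44 (2.07) and Cpne5 (3.46) were called higher. Near Cdkn1b, Crebl2 (0.447) and Gpr19 (0.392) were called lower among 10 measured rows. Near Cdkn2d, Col5a3 (0.481), Angptl6 (0.0965), Pde4a (0.315) and Gm16754 (0.265) were called lower and Zglp1 (3.82) higher among 33, and no measured row near Cdkn2c or Cdkn3 was called. Of all measured genes, 8.12% were called in either direction, and whether these stretches differ from that share was not tested.

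Cdkn1c encodes p57, an imprinted CIP/KIP inhibitor of stem cells and placenta (chromosome 7, 143458350 to 143461050, minus strand, 5 exons). It had 0 reads in all 8 lanes, in exons and in the whole gene, which allows up to 0.0973 CPM in the Klf2 library and 0.0996 CPM in the BFP library, from 3 reads over the exon reads and before TMM scaling. The gene span overlaps the antisense transcript Gm44732. Of 33 rows within 500 kb, 11 were measured and 18 had no read, so genes around it were transcribed. R74862 (0.435) and Tnfrsf26 (0.446) were called lower among the 11 measured, where 5.67% of all measured genes were called lower.

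Cdkn3 encodes a dual-specificity phosphatase that removes the activating phosphate from CDK2 and is made mainly in dividing cells (chromosome 14, 46760541 to 46771525, plus strand, 8 exons). It had 12.6, 13.95, 14.8 and 16.3 CPM in the Klf2 lanes and 7.88, 7.60, 7.61 and 8.30 CPM in the BFP lanes. The groups did not overlap, and the ratio was 1.83 (1.56 to 2.15) from 430 reads in the Klf2 library and 244 in the BFP library. Junction reads gave a similar ratio, with 160 in the Klf2 library and 88 in the BFP library, of 1.89 (1.45 to 2.48). Reads outside its exons did not, at 85 in the Klf2 library and 104 in the BFP library, a ratio of 0.850 (0.631 to 1.14), so that they made up 16.5% of Cdkn3 gene reads in the Klf2 library and 29.9% in the BFP library.

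**Figure D3:**
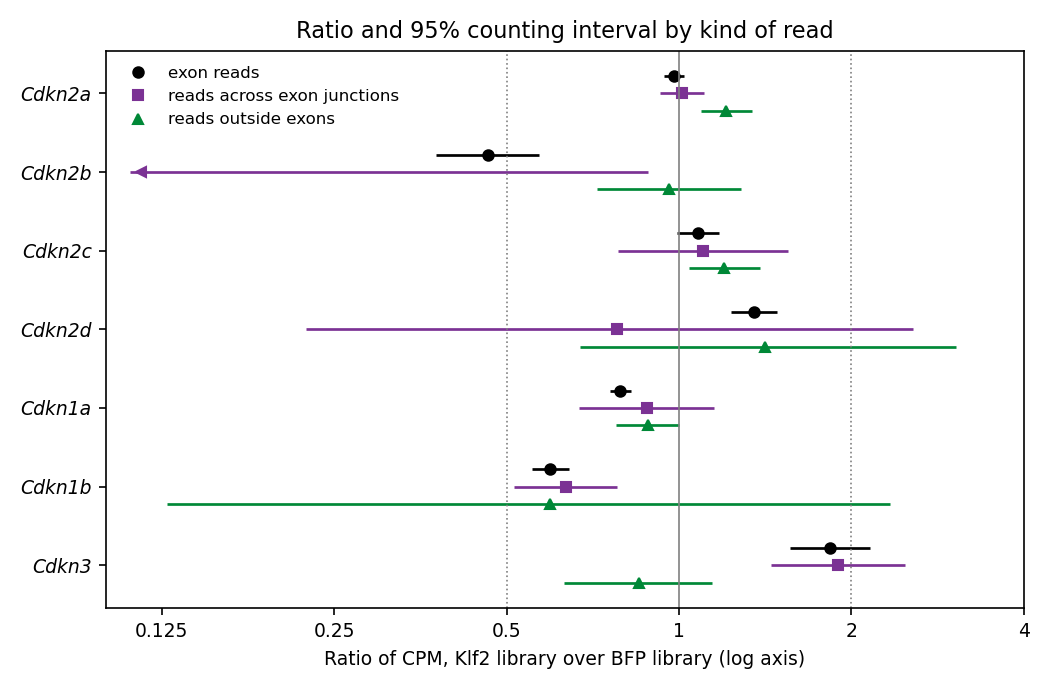
Ratio of CPM, Klf2 library over BFP library, on a log axis with 95% counting intervals, for exon reads (circles), reads across exon junctions (squares) and reads outside exons (triangles); dotted lines mark 2-fold. The arrow for Cdkn2b marks 0 junction reads in the Klf2 library, and reads outside exons lie near 1 for Cdkn2b (0.960) and Cdkn3 (0.850), apart from their exon reads (0.464 and 1.83).

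Per kilobase of exon, Cdkn2a led in both libraries at 133 CPM per kilobase in the Klf2 library and 136 in the BFP library, followed by Cdkn1a at 58.3 in Klf2 and 73.8 in BFP and Cdkn2d at 27.4 in Klf2 and 20.3 in BFP. Below them the order differed between the libraries. In the Klf2 library Cdkn3 (18.6), Cdkn2c (14.02), Cdkn1b (7.99) and Cdkn2b (3.27) followed, and in the BFP library Cdkn1b (13.4), Cdkn2c (13.0), Cdkn3 (10.2) and Cdkn2b (7.04). The level of Cdkn2a was 2.29 times that of Cdkn1a in the Klf2 library and 1.85 times in the BFP library, and 40.8 times that of Cdkn2b in the Klf2 library and 19.3 times in the BFP library. Cdkn3 stood at 2.33 times Cdkn1b in the Klf2 library and at 0.758 times in the BFP library. These levels divide by the annotated exon length of each row, 4552 bases for Cdkn1b and 773 for Cdkn3. The order of genes and the ratios between them therefore depend on that annotation. Summed per kilobase, the 4 INK4 genes came to 178 in the Klf2 library and 176 in the BFP library, and the 3 CIP/KIP genes to 66.3 in the Klf2 library and 87.2 in the BFP library. Rows of the INK4 genes thus made up 67.7% of the summed level of the 8 genes in the Klf2 library and 64.5% in the BFP library. CIP/KIP rows made up 25.2% in Klf2 and 31.8% in BFP, and Cdkn3 7.08% in Klf2 and 3.71% in BFP. Cdkn2a alone made up 50.7% in Klf2 and 49.7% in BFP. As its row counts p16 and ARF together, the share of INK4 inhibitor transcripts was not determined.

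**Figure D4:**
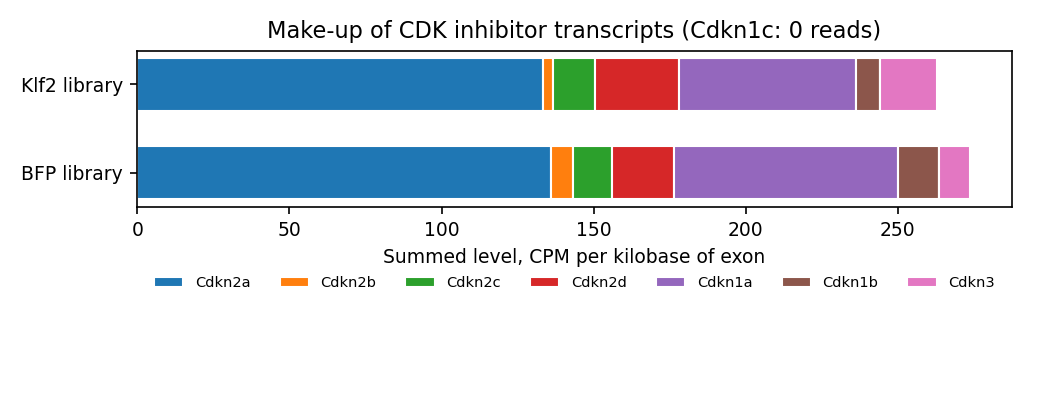
Stacked levels in CPM per kilobase of exon of the 7 CDK inhibitor genes with reads, for the Klf2 library (above) and the BFP library (below). Cdkn2a, whose row counts p16 and ARF together, is the widest block in both, at 133 in the Klf2 library and 136 in the BFP library.

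Lists of the partners of these inhibitors are read against all measured genes, of which 2.45% were called higher and 5.67% lower, and 37.1% had an interval above 1 and 37.3% one below. Among cyclins E, A and B with their kinases and activators, 4 of 15 measured genes were called higher and none lower, with 13 intervals above 1, 1 below and a median log2(CPM + 1) difference of 0.78, where the median of all measured genes was -0.01. The 4 were Ccne2 (75.6 CPM in the Klf2 library and 32.9 in the BFP library) and Ccne1 (148 CPM in Klf2 and 69.8 CPM in BFP), the cyclins of CDK2 at the start of replication, Cdc25a (188 CPM in Klf2 and 90.3 CPM in BFP), a phosphatase that activates CDK2, and Cdk1 (319 CPM in Klf2 and 158 CPM in BFP), the mitotic kinase. Of 6 genes of cyclin D and its kinases, the targets of INK4 proteins, Ccnd3 was called higher (1193 CPM in Klf2 and 531 CPM in BFP, ratio 2.25) and none lower, with 5 intervals above 1, 0 below and a median of 0.19. The kinases themselves differed less, with ratios of 1.18 for Cdk4 and 1.10 for Cdk6, and Cdc37, their chaperone, had one of 1.26. The G2/M genes had a median of 0.81, and each of the 16 lay above 1 by its interval; Hmmr (2.10) and Cdc20 (2.05) were called higher, while Plk1 (1.996) and Ube2c (1.91) were not. Of 13 pocket protein and E2F genes, E2f2 was called higher (228 CPM in Klf2 and 109 CPM in BFP) and none lower, with 9 intervals above 1 and 3 below, and E2f8 (1.75), Rbl1 (1.66) and Tfdp2 (0.639) followed in size. That list's median was 0.35. Of the pocket proteins, Rb1 (0.787) and Rbl2 (0.883, named after its values were seen) were below 1, unlike Rbl1. Uniquely placed reads made up 61.3% for Rb1 and 56.9% for Rbl2, against 100% for Rbl1. Of the genes called higher in these lists, Ccne2 (67.7%) and Ccnd3 (81.7%) had the lowest such shares. The bearing of reads with several placements on these ratios was not tested.

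Ubiquitin ligase genes that clear CIP/KIP proteins had no call among 12 measured, with 8 intervals above 1, 3 below and a median of 0.34. Skp2, the F-box protein that marks p27 for destruction, was at 109 CPM in the Klf2 library and 62.7 CPM in the BFP library, a ratio of 1.74 (1.64 to 1.84). Dtl, which does so for p21 in S phase, had a ratio of 1.47 and Skp1a, of which 26.2% of reads were uniquely placed, one of 1.53. Rnf123, a p27 ligase subunit of G1, was lower at 0.613.

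Genes that act on transcription of the inhibitors differed by list. Among 22 transcription factors and signalling genes, 4 were called lower and none higher, with 11 intervals below 1, 5 above and a median of -0.18. They were Gfi1, a repressor of Cdkn1a in other settings, at 7.93 CPM in the Klf2 library and 38.5 CPM in the BFP library, Klf6 (34.4 CPM in Klf2 and 113 CPM in BFP), Tgfbr2, a receptor of TGF-beta (80.2 CPM in Klf2 and 172 CPM in BFP), and Bcl6 (19 reads in Klf2 and 70 in BFP). Named after their values were seen, Trp53 (207 CPM in Klf2 and 205 CPM in BFP), Mdm2 (117 CPM in Klf2 and 122 CPM in BFP) and Myc (290.5 CPM in Klf2 and 293 CPM in BFP) had ratios of 1.01, 0.960 and 0.993, and Foxo3 (62.1 CPM in Klf2 and 98.4 CPM in BFP) one of 0.631. Of 20 measured genes of a list of Polycomb genes and other regulators of the Cdkn2a locus, 1 was called, near the 5.67% of all measured genes called lower. It was Kdm6b, a demethylase that removes the Polycomb mark and so acts against the repressors in the list, and it was lower (84.7 CPM in Klf2 and 181 CPM in BFP); the list had 6 intervals above 1, 10 below and a median of -0.15. Cbx7 (0.530), Phc1 (0.550) and Cbx6 (0.638, with 3.48% of reads uniquely placed) were lower by their intervals. Bmi1 (154 CPM in Klf2 and 159 CPM in BFP) and Ezh2 (323 CPM in Klf2 and 220 CPM in BFP), also named after their values were seen, had ratios of 0.968 and 1.47.

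**Figure D5:**
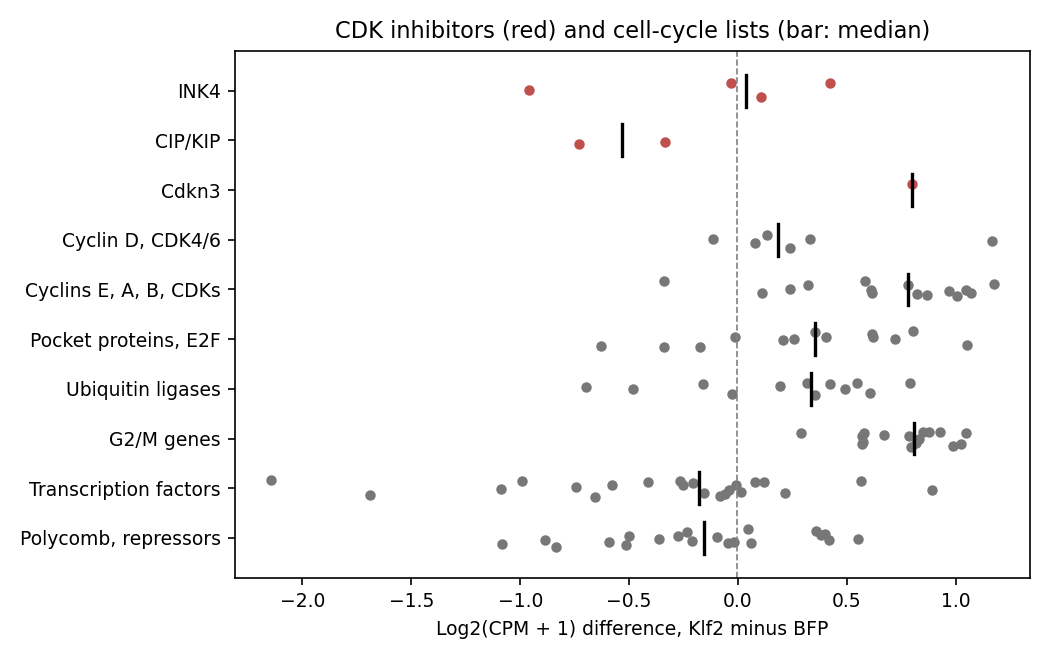
Log2(CPM + 1) difference, Klf2 minus BFP, of each measured CDK inhibitor gene (red) and of each measured gene in 7 lists of cell-cycle genes and their regulators (grey); black bars are list medians and the dashed line is the median of all measured genes (-0.01). Cyclin E, A and B genes and G2/M genes lie mostly to the right with medians of 0.78 and 0.81, beside Cdkn3, and the CIP/KIP genes lie to the left.

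With 2 libraries a pattern is a single ratio, and the nearest log2 ratios among 104 genes of these lists are given as such. The order is finer than counting error, as the ratio interval of Cdkn2b, 0.376 to 0.570, also held Cbx7 (0.530) and Phc1 (0.550). The lists were made of partners and regulators of the inhibitors, and a link between genes of near ratio was not tested. Nearest to Cdkn3 (0.87) were Ccnb1 (0.88) and Aurka (0.89), to Cdkn2d (0.44) Cks1b (0.42) and Suz12 (0.42), and to Cdkn2b (-1.11) Tgfbr2 (-1.10) and Kdm6b (-1.09). Nearest to Cdkn1b (-0.75) were Foxo4 (-0.77) and Rnf123 (-0.71), and to Cdkn1a (-0.34) Pkmyt1 (-0.34) and Rb1 (-0.35). Cdkn2a (-0.03) lay beside Cul4a (-0.03) and Cbx2 (-0.02), and Cdkn2c (0.11) beside Mnat1 (0.11) and Smad2 (0.12). Among these near genes, Ccnb1 had the lowest share of uniquely placed reads, 53.5%.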

How the data were processed

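Per the labels' protocols, poly(A) RNA from cells carrying a Klf2 or a BFP retrovirus was sequenced on a HiSeq instrument; the protocols name 2 library kits without assigning them to libraries. The genome build mm10 and CASAVA 1.8.2 come from the submitters' processing notes; the sources used here do not give the aligner, counting program, annotation or strand use. The authors deposited counts per gene and lane of all exon reads, uniquely placed exon reads, gene reads, junction reads and intron-exon reads, and a median coverage signal, per the file headers. The deposited RPKM was not used.

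Lane counts gave a chi-square per degree of freedom of 1.27 (Klf2) and 1.29 (BFP) on all exon reads, and 1.03 in both on uniquely placed reads, below a limit of 1.5, over genes with at least 20 reads. Lanes were therefore summed, n = 1 library per group, and no test of the conditions or p-value was possible. Reads outside exons are gene reads less exon reads. All exon reads of the 7 measured members were uniquely placed. Some list genes had lower shares, and not all of these are given. TMM factors came from edgeR 4.0.16 in R 4.3.3 (0.969 for Klf2 and 1.03 for BFP). Ratio intervals are exact (Clopper-Pearson, scipy 1.17.1), conditional on summed reads, and cover counting error only, since reads carry no molecular identifiers. Log2 differences add 1 CPM.

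The genes, lists and rules were chosen with earlier results of these data known. By rule, named genes are the 8 members, Klf2, up to 4 measured genes per list with the largest log2 difference, called ones first, called rows within 500 kb of a member and measured rows near Cdkn2a, and the 2 list genes with the nearest ratio; genes named outside it are marked in the text. Alternatives were total-count and DESeq2 1.42.0 scaling, other read kinds, floors, fold limit and pseudocount, and lanes left out. Of the list genes, Ebf1 and Hbb-b1 were not analysed here, and Adgre1 was matched under its older symbol Emr1. Promoters are from RefSeq (GRCm38.p6) and overlapping genes from GENCODE M21, the same build as mm10.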

Additional observations from a re-analysis of the deposited data

Results flagged for a closer look

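Among the 4 BFP lanes, lane 1 lay apart from the other 3 for Cdkn2a, at 154 CPM, with 91.2% of the group's range between it and the nearest lane. It was the only 1 of 14 sets of 4 lanes so marked among the CDK inhibitor genes with reads, and chance marks about 1 in 20. Without lane 1 the ratio of Cdkn2a stayed within its counting interval.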

How the results depend on the processing

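No paired analysis was possible because the replicate numbers are lanes and each group holds 1 library. The count of CDK inhibitors past the 2-fold rule was 1, and was 0 with total gene reads and with a floor of 10 CPM, both through Cdkn2b, and 3 with a fold limit of 1.5; with each lane left out it was 1. The count over all genes was 881 (266 higher, 615 lower). It was 398 (121 higher, 277 lower) with a floor of 10 CPM and 2617 (1112 higher, 1505 lower) with a fold limit of 1.5, and 432 were higher with no floor. With a lane left out it was 899 to 935, 267 to 281 higher and 632 to 654 lower. Total-count scaling shifted log2 ratios by -0.09. Of 63 alternative values of single members, 59 stayed within the counting interval and 4 moved beyond it: Cdkn1a (-0.43) and Cdkn2a (-0.12) with total-count scaling, and Cdkn2a (0.04) and Cdkn2b (-0.74) with total gene reads. None of the 5 members whose interval excluded 1 changed direction in these alternatives. Neither culture nor preparation was replicated, so the depth bears on counting error only.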
